A study of Homo sapiens with 4 samples.

Results

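The expression difference between the arrays titled PC3 and the arrays titled C42B was described across all 17687 genes that had a named probe set. For each gene, the mean of the 2 arrays titled C42B was subtracted from the mean of the 2 arrays titled PC3, with the 2 stable constructs of a line serving as its replicates. All 17687 genes entered the comparison, out of 21448 probe sets on the array, of which 3739 had no gene name in the table used here. The 4 Clariom S arrays, a whole-transcript microarray, held total RNA of 1 culture per line and construct.

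By title there was 1 culture with the construct miR-410 and 1 with the construct miR-CON for PC3, and likewise for C42B. All cultures were prostate cancer cells stably transfected with a pMIR plasmid. Its insert was the miR-410 precursor, made from a viral promoter (CMV) along with green fluorescent protein, or, in miR-CON, a scrambled control. Both constructs were selected with puromycin, so neither line was represented by unmodified cells. Whether a culture was a pool or 1 clone is not given in the sources used here. The 2 arrays titled PC3 carry labels in conflict, since the genotype and description give each of them the construct that its title gives to its partner. This does not touch the comparison of the lines, because each line's mean takes in both constructs. Arrays are called by their titles throughout, and within each line the value of the array titled miR-CON is given before that of the array titled miR-410. The labels name no further culture of any line and construct. The p-values thus measure only the spread between these arrays, and precision is limited by how few there are. Within a line the 2 arrays differ in construct, so this spread takes in any effect of the construct.

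C42B cells descend from LNCaP, a luminal prostate cancer line that responds to androgen and secretes prostate-specific antigen. PC3 cells grow without androgen and carry high levels of annexins, caveolin-1, integrins and inflammatory cytokines. Androgen switches on KLK3 and other luminal genes through response elements, which are palindromes of the AGAACA half-site. AP-1, a dimer of JUN and FOS family proteins, binds TGACTCA or TGAGTCA sites in the promoters and enhancers of invasion and cytokine genes. These sites were searched for here as TGANTCA, where N stands for any base. This wider pattern also counts TGAATCA and TGATTCA.

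The lineage markers went against the line names in the titles. Both marker lists were chosen with earlier results of these data known, so their counts describe the arrays and are no independent support. Of 14 listed markers of the LNCaP lineage 11 were measured, and 8 of these were higher on the arrays titled PC3 with 0 lower, while of 16 markers of PC3 cells 14 were lower on the arrays titled PC3 with 0 higher. A gene was called higher or lower when limma's moderated test gave an adjusted p under 0.05 (Benjamini-Hochberg, over all genes) and the means differed at least 2-fold. By this rule 8.4% of all genes were called higher and 8.42% lower on the arrays titled PC3. By these markers the line names of the 2 pairs may be exchanged, which the labels alone cannot settle. The median log2 difference was 3.83 over the LNCaP-lineage markers and -4.11 over the PC3 markers, beside 0.03 over all genes.

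The RMA value (log2) of FOLH1, the gene of the membrane antigen PSMA, was 11.84 and 12.16 on the arrays titled PC3, against 4.37 and 3.73 on the arrays titled C42B. The groups lay far apart, and the log2 difference of 7.95 ± 0.27 (SE, n = 2 arrays each, limma adjusted p = 0.000101) was the highest of all called genes. In such bulk RNA, fewer cells with a transcript and less of it per cell cannot be told apart. UGT2B15, a glucuronosyltransferase that inactivates androgens, stood at 10.42 and 10.52 on the arrays titled PC3, against 3.05 and 2.74 on the arrays titled C42B, a log2 difference of 7.58 (adjusted p = 7.67e-05). KLK3, which encodes prostate-specific antigen, stood at 11.04 and 11.17 on the arrays titled PC3 and at 7.18 and 6.74 on the arrays titled C42B, a log2 difference of 4.15 (adjusted p = 0.000227). The kallikreins KLK2 and KLK4, the serine protease TMPRSS2, the metalloreductase STEAP2 and the transporter SLC45A3 were also called higher, with log2 differences of 4.02, 3.86, 3.83, 2.21 and 1.97. Not called were ACP3, which encodes prostatic acid phosphatase (1.46, adjusted p = 0.0507), the cold-sensing channel TRPM8 (0.89, adjusted p = 0.0223 but under 2-fold) and the homeobox factor HOXB13 (0.39, adjusted p = 0.329). The log2 difference of ACP3 was 2.04 without the array titled PC3 miR-CON and 0.88 without the array titled PC3 miR-410. That of TRPM8 was 1.04 without the array titled C42B miR-CON. HOXB13, a prostate lineage factor, measured 8.91 and 9.21 on the arrays titled PC3, against 8.97 and 8.39 on the arrays titled C42B, and the groups overlapped.

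ANXA1, which encodes the calcium-dependent membrane protein annexin A1, stood at 3.11 and 3.27 on the arrays titled PC3, against 11.10 and 11.19 on the arrays titled C42B. The log2 difference was -7.95 ± 0.17 (SE, n = 2 arrays each, limma adjusted p = 7.67e-05), about as far below 0 as that of FOLH1 was above it. CAV1, which encodes the caveolar coat protein caveolin-1, read 6.81 and 5.32 on the arrays titled PC3 and 11.27 and 11.24 on the arrays titled C42B, a log2 difference of -5.18 (adjusted p = 0.00146). The urokinase gene PLAU (-5.92), the chemokine CXCL8 (-5.62), the hyaluronan receptor CD44 (-5.26), the lectin LGALS1 (-4.92), the detoxifying enzyme GSTP1 (-4.72) and the receptor kinase AXL (-4.47) followed. S100A2, ITGB4, MET, VIM, IL1A and CAV2 were called lower with smaller differences, between -3.74 and -1.96. EGFR did not follow the rest of the PC3 markers, with a log2 difference of 0.52 (adjusted p = 0.133). CAVIN1, the cofactor of caveola formation, was on the list although PC3 cells are known to lack it. It is thus not a marker of high expression in PC3 cells. CAVIN1 read 5.42 and 5.60 on the arrays titled PC3 and 4.97 and 4.68 on the arrays titled C42B. Its log2 difference was 0.69 (adjusted p = 0.0462, under 2-fold). Leaving out any 1 of the 4 arrays gave 8 to 9 LNCaP-lineage markers called higher and 14 PC3 markers called lower.

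**Figure D1:**
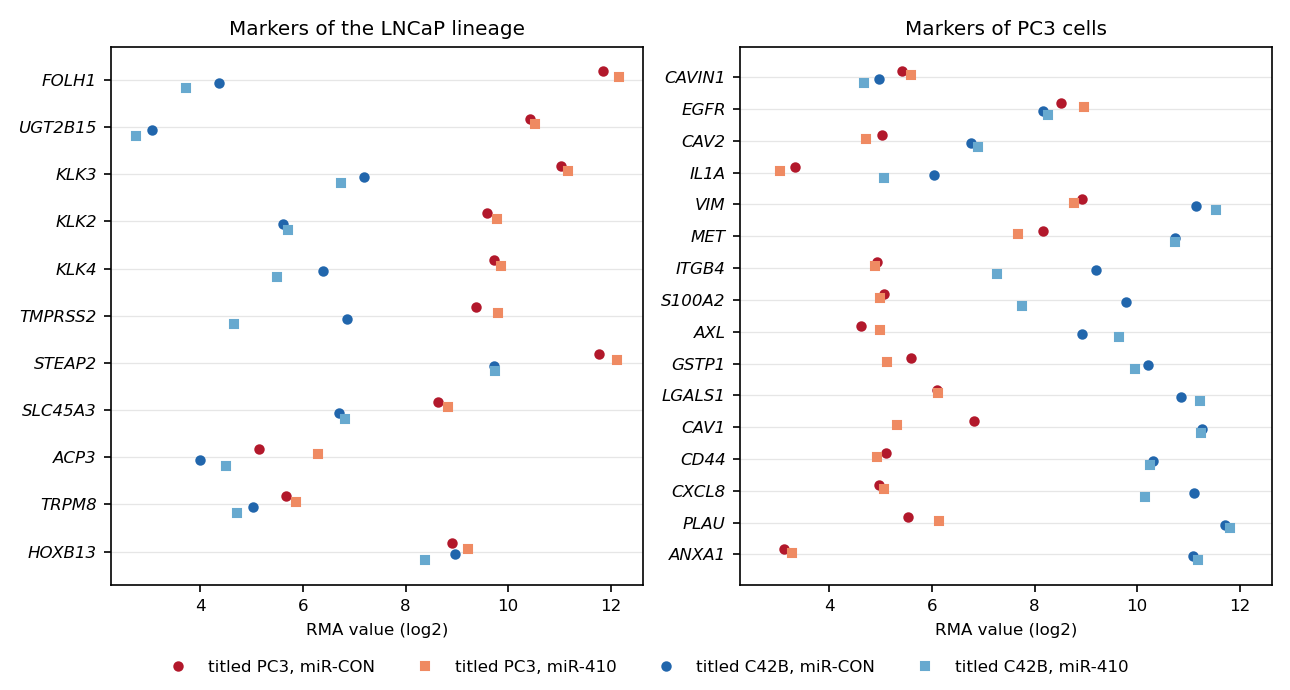
RMA values (log2, horizontal axis) of 11 markers of the LNCaP lineage (left) and 16 markers of PC3 cells (right), 1 point per array, red tones for the arrays titled PC3 and blue tones for the arrays titled C42B, circles for miR-CON and paler squares for miR-410 by title. The red points lie above the blue points for FOLH1 (11.84 and 12.16 against 4.37 and 3.73) and far below them for ANXA1 (3.11 and 3.27 against 11.10 and 11.19), while HOXB13 overlaps.

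Of 17 measured markers of blood, endothelial, smooth muscle, fibroblast and basal cells, which these cultures should not hold, 1 was called. The median value of these markers was 4.86 and 4.87 on the arrays titled PC3 and 4.98 and 5.09 on the arrays titled C42B. The lysosomal glycoprotein gene CD68 was the one called, with values of 7.14 and 7.29 on the arrays titled PC3 and 8.74 and 9.29 on the arrays titled C42B (log2 difference -1.80, limma adjusted p = 0.00454).

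Promoter stretches of 5 genes show the letters of these 2 kinds of site at genes from both ends of the comparison, read 5′ to 3′ on the gene's strand from RefSeq promoters (GRCh38.p14), with the motif in capitals. The first 2 belong to genes that were higher on the arrays titled PC3 and hold the androgen response half-site AGAACA. The other 3 belong to genes that were lower there and hold an AP-1 site, TGAGTCA or TGACTCA. This sorting holds for the printed stretches only. On either strand, the half-site also stood in promoters of genes called lower, among them CAV1 and ETV1. An AP-1 site also stood in the promoter of KDM6A, which was called higher.
KLK3 (chr19:50854715-50854780, plus strand): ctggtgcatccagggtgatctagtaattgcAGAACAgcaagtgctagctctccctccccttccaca
UGT2B15 (chr4:68670789-68670854, minus strand): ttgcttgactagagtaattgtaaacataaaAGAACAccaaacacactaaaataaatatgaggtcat
ANXA2 (chr15:60398077-60398143, minus strand): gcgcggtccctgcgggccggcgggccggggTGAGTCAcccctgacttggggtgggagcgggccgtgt
CXCL8 (chr4:73740402-73740468, plus strand): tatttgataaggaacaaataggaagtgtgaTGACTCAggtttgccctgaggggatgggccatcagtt
GSTP1 (chr11:67583716-67583782, plus strand): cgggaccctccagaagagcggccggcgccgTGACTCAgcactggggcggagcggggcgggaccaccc
Counted from the annotated start, the motif begins at -170 in KLK3, at -172 in UGT2B15, at -127 in ANXA2, at -137 in CXCL8 and at -66 in GSTP1.

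Over all promoters of this length (250 bases before to 50 after the start), the motifs were counted on either strand in 14250 of the 17687 genes that matched a RefSeq promoter. AGAACA stood in 9.25% of promoters of genes called higher on the arrays titled PC3, in 8.52% of those called lower and in 10.9% of all promoters. The full element, AGAACA followed after 3 bases by TGTNCT, stood in 2 of the 14250 promoters. TGANTCA stood in 3.5% of promoters of genes called higher (42 of 1200), in 7.69% of those called lower (92 of 1197) and in 5.75% of all (820 of 14250). The TEAD site GGAATG stood in 10.4%, 11.5% and 11.6% in the same order. These shares are descriptions of letters in a short window and carry no test, and enhancers were not looked at.

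The differences between the lines were larger in the median than those between the constructs of a line. In all, 1485 genes were called higher and 1490 lower on the arrays titled PC3. The median absolute log2 difference was 0.351 between the lines, 0.164 between the 2 arrays titled PC3 and 0.245 between the 2 arrays titled C42B. The line value compares means of 2 arrays and the other values compare single arrays, so noise enters them unequally. At a 4-fold cutoff 417 genes were called higher and 677 lower, at 16-fold 91 and 233, and at 64-fold 11 and 46, so the lower side held more of the very large differences. Values near 3 lie at the low end of the array's scale, and whether they were above background was not examined here, so folds against them are those of the RMA values. With 1 array per line and construct, 2386 of the 2975 called genes were at least 2-fold apart between the lines on the miR-CON arrays and again, in the same direction, on the miR-410 arrays by title. Of the called genes, 305 also differed at least 2-fold between the 2 arrays of one line. Among the genes called higher, 24 did so between the arrays titled PC3 and 94 between the arrays titled C42B, and among the genes called lower, 51 and 144. The 2 groups of values did not overlap for 64.5% of all genes, called or not. A further 270 genes differed at least 2-fold without being called.

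**Figure D2:**
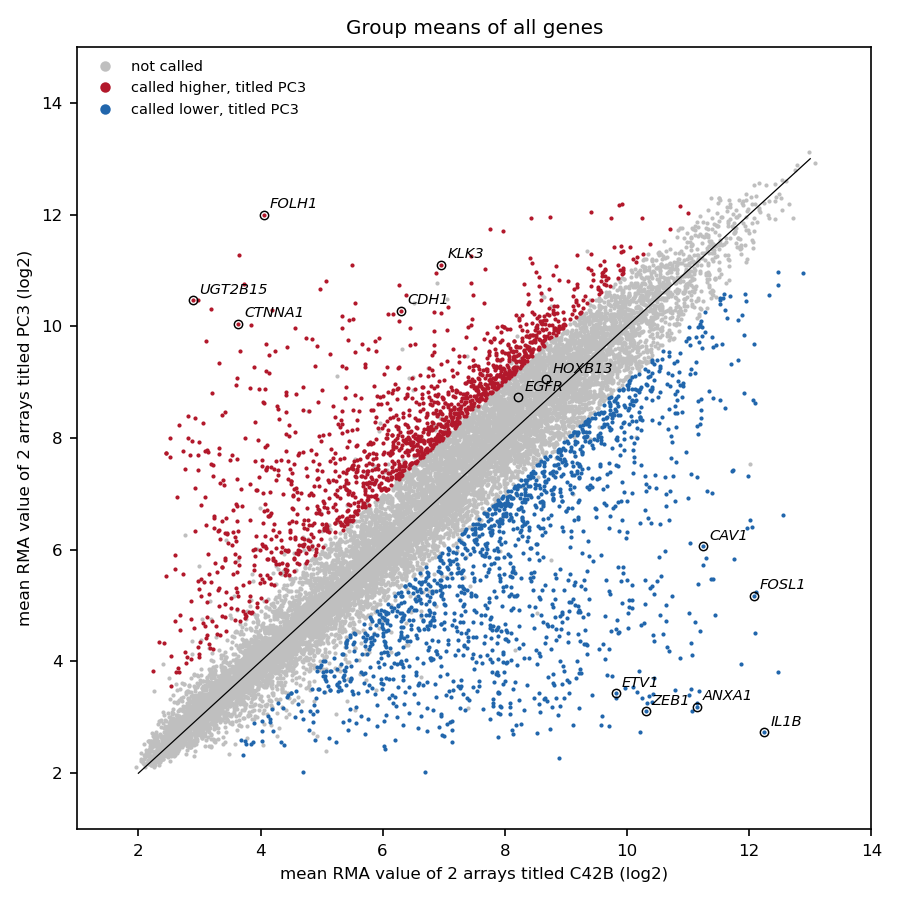
Mean RMA value (log2) of the 2 arrays titled PC3 (vertical axis) against that of the 2 arrays titled C42B (horizontal axis), 1 point per gene, with genes called higher in red (1485), genes called lower in blue (1490) and the line of equal values in black. FOLH1, UGT2B15 and CTNNA1 lie at the upper left and IL1B, ANXA1 and ZEB1 at the lower right, while HOXB13 and EGFR lie near the line.

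Besides FOLH1 and UGT2B15, the highest called genes were of mixed function. STXBP5L, a syntaxin-binding protein gene, stood at 11.70 and 10.86 on the arrays titled PC3 and at 3.55 and 3.74 on the arrays titled C42B (log2 difference 7.63, limma adjusted p = 0.000134). CRNDE, a long non-coding RNA gene, measured 10.41 and 10.54 on the arrays titled PC3 and 2.86 and 3.09 on the arrays titled C42B (log2 difference 7.50). The X-linked cancer/testis genes PAGE1 (7.12), GAGE12G (6.19) and XAGE1B (6.04), the polarity scaffold LIN7A (7.04), the fatty acid hydroxylase CYP4V2 (6.64) and the stress-response gene SESN3 (6.11) were among the 15 highest. The same 15 held UGT2B17, the paralog of UGT2B15 (5.91), the neutral endopeptidase gene MME (5.74), the endosomal GTPase RAB5C (5.71) and the germ-cell factor SOHLH2 (5.60). Their lowest value on an array titled PC3 was 8.90 and their highest on an array titled C42B was 6.0.

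The lowest called genes were led by secreted and membrane proteins. IL1B, which encodes interleukin-1 beta, read 2.66 and 2.82 on the arrays titled PC3, against 12.05 and 12.44 on the arrays titled C42B, and its log2 difference of -9.50 ± 0.20 (SE, n = 2 arrays each, limma adjusted p = 7.67e-05) was the largest in size of all called genes. ANXA2, the annexin gene whose promoter is printed above, stood at 3.83 and 3.82 on the arrays titled PC3 and at 12.43 and 12.51 on the arrays titled C42B (log2 difference -8.65). HAS2, a hyaluronan synthase (-7.96), TIMP1, an inhibitor of matrix metalloproteinases (-7.91), DKK1, a secreted Wnt inhibitor (-7.89), SERPINB7 (-7.70), the matrix protein gene ABI3BP (-7.60), the chemokine CXCL5 (-7.58), the granule proteoglycan SRGN (-7.53) and the anion transporter SLCO1B3 (-7.47) came next. GLIPR1 (-7.30), the mesenchymal transcription factor ZEB1 (-7.20), the glycosyltransferase B3GNT5 (-7.13) and the integrin ligand EDIL3 (-7.08) completed the 15 lowest. Apart from CXCL5 on the array titled PC3 miR-CON (5.30), these genes had values between 2.54 and 4.33 on the arrays titled PC3, and on the arrays titled C42B none was below 10.03.

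Androgen-regulated genes were called higher on the arrays titled PC3 more often than lower. Of 32 measured members, 13 were called higher (40.6%, beside 8.4% of all genes) and 4 lower, and the median log2 difference was 0.93. After KLK3, KLK2 and KLK4, the called members ranged between 1.06 and 3.83. The 4 lower members were NDRG1 (-1.33), PTGER4 (-2.04), ALDH1A3 (-3.09) and HPGD, which degrades prostaglandins (-5.07). HPGD measured 5.15 and 5.48 on the arrays titled PC3, against 10.87 and 9.89 on the arrays titled C42B, so it was farther from 0 than any kallikrein of the list and lay on the opposite side.

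The called UGT2B genes and the called AKR1C genes, whose products interconvert steroids, lay on opposite sides. Of 7 measured UGT2B genes, whose products glucuronidate steroids for export, 6 were called higher on the arrays titled PC3, with log2 differences of 7.58 for UGT2B15, 5.91 for UGT2B17, 4.85 for UGT2B28, 4.11 for UGT2B11, 3.77 for UGT2B10 and 1.98 for UGT2B7. UGT2B4 was not called (0.94, limma adjusted p = 0.0565). Its log2 difference was 1.31 without the array titled PC3 miR-CON and 0.58 without the array titled PC3 miR-410. AKR1C3, which reduces androstenedione to testosterone, read 5.0 and 3.01 on the arrays titled PC3, against 8.97 and 9.40 on the arrays titled C42B (log2 difference -5.18, adjusted p = 0.00379). Its relatives AKR1C1 and AKR1C2 were called lower as well (-3.97 and -2.04), and AKR1C4 was not (-0.23). SLCO1B3, a transporter that can carry steroid conjugates, stood at 2.95 and 2.54 on the arrays titled PC3 and at 10.03 and 10.41 on the arrays titled C42B. Over the whole list of 30 measured steroid enzymes, 7 were higher (23.3%) and 6 lower (20%), beside 8.4% and 8.42% of all genes. The list median was 0.17. UGT2B genes and AKR1C genes are each close in sequence, and probes of one member may pick up another.

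Transcription factors of luminal epithelium moved in both directions. Of 21 measured members 8 were called higher (38.1%) and 5 lower (23.8%) on the arrays titled PC3, beside 8.4% and 8.42% of all genes. GATA2, a zinc finger transcription factor of luminal cells, measured 8.36 and 8.41 on the arrays titled PC3, against 5.31 and 5.13 on the arrays titled C42B (log2 difference 3.16, limma adjusted p = 0.000242). FOXA1, the pioneer factor that opens luminal enhancers, read 10.90 and 10.85 on the arrays titled PC3 and 9.25 and 7.88 on the arrays titled C42B (log2 difference 2.31, adjusted p = 0.0154). The epithelial factors EHF and GRHL2 were uneven within the pair titled C42B. EHF stood at 11.97 and 11.90 on the arrays titled PC3 and at 9.84 and 7.01 on the arrays titled C42B (log2 difference 3.51, adjusted p = 0.0345). GRHL2 stood at 10.54 and 10.28 on the arrays titled PC3 and at 8.36 and 4.67 on the arrays titled C42B, and its log2 difference of 3.89 was not called (adjusted p = 0.0548). Its log2 difference was 5.74 without the array titled C42B miR-CON and 2.05 without the array titled C42B miR-410. Lower on the arrays titled PC3 were ETV1 (-6.38), TRPS1 (-4.87) and KLF5 (-3.65). ETV1, an ETS factor known to be rearranged and strongly expressed in LNCaP cells, measured 3.20 and 3.67 on the arrays titled PC3, against 9.56 and 10.07 on the arrays titled C42B, and so lay on the side opposite to the called LNCaP-lineage markers. Without either array titled PC3, 5 in place of 8 members were called higher, and the EHF call was lost in both cases. The EHF difference was 2.09 without the array titled C42B miR-410.

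Genes with known lesions or silencing in these lines were looked at one by one, and 18 of 24 were measured. CTNNA1, the alpha-catenin gene that PC3 cells are known to have lost, read 9.99 and 10.11 on the arrays titled PC3, against 3.30 and 3.95 on the arrays titled C42B (log2 difference 6.42 ± 0.25, SE, n = 2 arrays each, limma adjusted p = 0.000133). GSTP1, whose promoter is known to be methylated and silent in LNCaP cells, stood at 5.60 and 5.13 on the arrays titled PC3 and at 10.21 and 9.96 on the arrays titled C42B (log2 difference -4.72). JAK1, the cytokine receptor kinase whose expression LNCaP cells are known to lack, measured 6.19 and 6.45 on the arrays titled PC3 and 9.89 and 10.10 on the arrays titled C42B (log2 difference -3.68). These 3 genes had the pattern known for the other line than the one in the title, and ETV1 did not. CDKN2A, the cell cycle inhibitor locus, was lower on the arrays titled PC3 (-2.70). The PI3K regulatory subunit PIK3R1 (2.0), the histone demethylase KDM6A (1.98) and the kinase MAP3K1 (1.65) were called higher. The remaining 9 genes, among them the mismatch repair genes MSH6 and PMS2 and the tumour suppressor RB1, were not called.

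**Figure D3:**
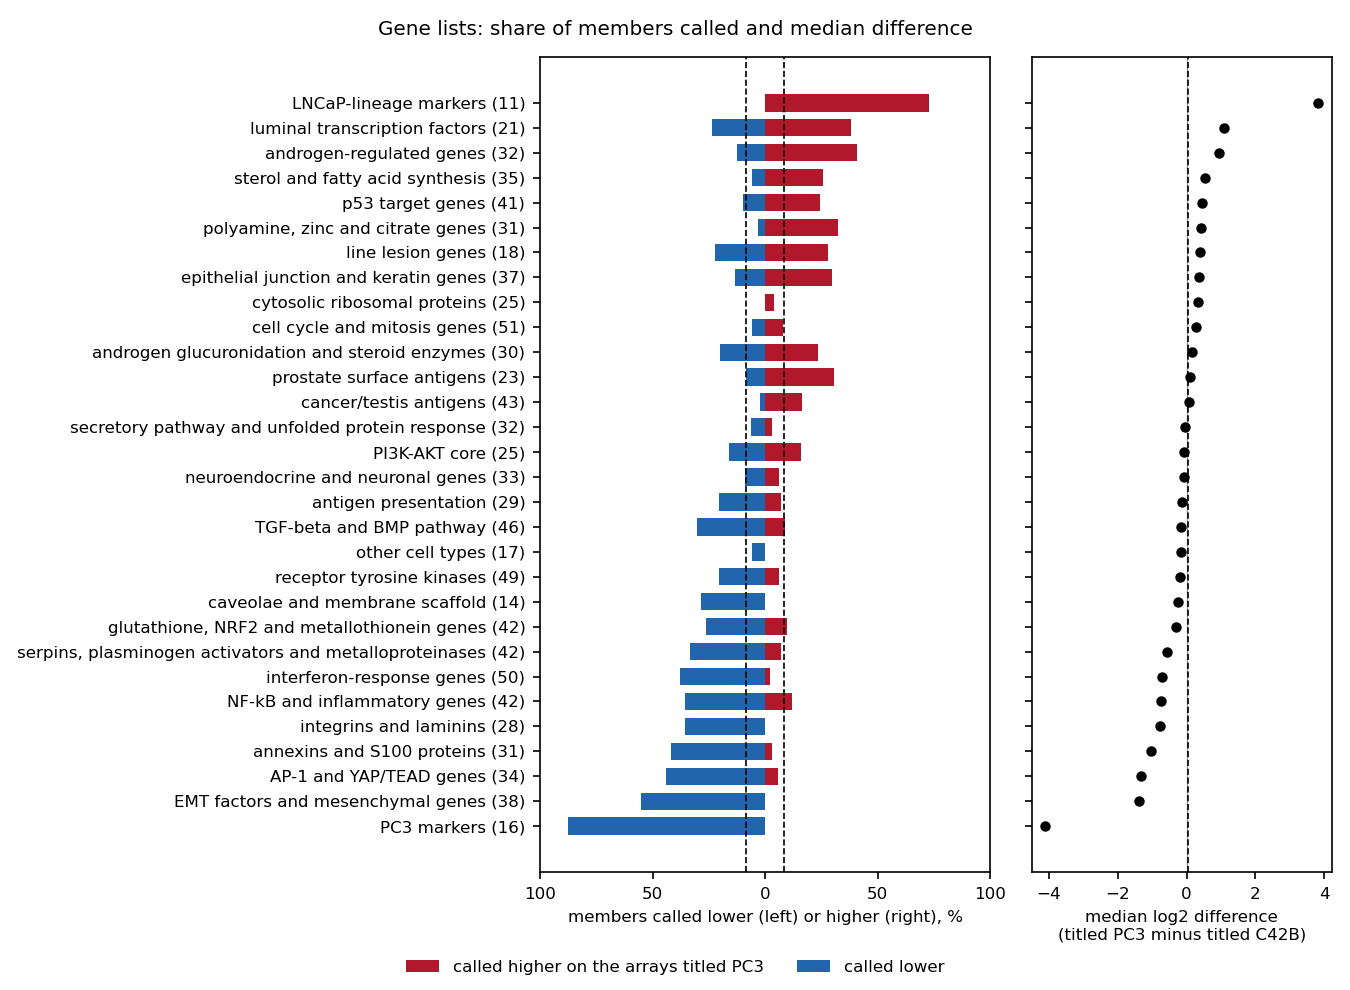
Left, share of each list's measured members (number in parentheses) called higher on the arrays titled PC3 (red, to the right) or lower (blue, to the left), in percent, with dashed lines at the shares over all genes (8.4% and 8.42%). Right, median log2 difference of each list, with a dashed line at the median of all genes (0.03). LNCaP-lineage markers stand at the top (3.83) and PC3 markers at the bottom (-4.11).

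Mesenchymal genes were often called lower on the arrays titled PC3 and none was called higher. Of 38 measured members, which include transcription factors of the epithelial-mesenchymal transition (EMT) and matrix genes, 21 were called lower (55.3%, beside 8.42% of all genes), and their median log2 difference was -1.39. The EMT factor ZEB1 read 3.13 and 3.09 on the arrays titled PC3 and 10.11 and 10.50 on the arrays titled C42B. CDH11, a mesenchymal cadherin, stood at 4.0 and 4.11 on the arrays titled PC3 and at 10.88 and 10.84 on the arrays titled C42B (log2 difference -6.81, limma adjusted p = 7.67e-05). TNC, which encodes the matrix protein tenascin-C, followed (-5.42). VIM, which encodes the intermediate filament vimentin, stood at 8.92 and 8.76 on the arrays titled PC3 and at 11.15 and 11.54 on the arrays titled C42B. SNAI1, a repressor of E-cadherin, had the highest difference of the list (0.95, adjusted p = 0.0142) and was not called because it was under 2-fold. Its difference was 1.08 without the array titled C42B miR-CON.

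Junction and keratin genes split. Of 37 measured members 11 were called higher (29.7%) and 5 lower (13.5%) on the arrays titled PC3, beside 8.4% and 8.42% of all genes. CDH1, which encodes E-cadherin, measured 10.27 and 10.29 on the arrays titled PC3, against 7.97 and 4.63 on the arrays titled C42B. The 2 arrays titled C42B were thus 3.34 apart, nearly as far as the lines (log2 difference 3.98, limma adjusted p = 0.0382). The call was lost without either array titled PC3, and the difference was 5.65 without the array titled C42B miR-CON and 2.31 without the array titled C42B miR-410. CLDN7, a tight junction claudin, read 10.06 and 9.98 on the arrays titled PC3 and 8.46 and 6.42 on the arrays titled C42B (log2 difference 2.58), its call was lost in the same 2 cases, and the difference was 1.56 without the array titled C42B miR-410. The surface antigen EPCAM stood at 11.30 and 11.39 on the arrays titled PC3 and at 11.07 and 7.61 on the arrays titled C42B and was not called (2.0, adjusted p = 0.23). On the array titled C42B miR-CON it stood close to the arrays titled PC3. The log2 difference of EPCAM was 3.74 without that array and 0.27 without the array titled C42B miR-410. The keratin KRT7 (-4.54), the plakophilin PKP1 (-4.14) and the claudin CLDN1 (-4.09) were lower on the arrays titled PC3. CLDN1 measured 3.97 and 3.58 on the arrays titled PC3 and 9.56 and 6.16 on the arrays titled C42B, its call was also lost without either array titled PC3, and the difference was -2.39 without the array titled C42B miR-CON. For the whole list, 7 members were called higher without the array titled PC3 miR-CON and 5 without the array titled PC3 miR-410.

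Annexins, S100 proteins, integrins and caveolar genes, where called, were lower on the arrays titled PC3 with 1 exception. Of 31 measured annexin and S100 genes, which encode calcium-binding proteins, 13 were called lower (41.9%) and 1 higher (3.23%) on the arrays titled PC3. Over all genes the shares were 8.42% and 8.4%. The median log2 difference of these annexin and S100 genes was -1.04. ANXA3 read 3.40 and 3.65 on the arrays titled PC3, against 9.83 and 10.09 on the arrays titled C42B (log2 difference -6.44, limma adjusted p = 0.000101). ANXA9 was the one called higher (1.25). Of 28 integrin, laminin and anchoring genes 10 were called lower (35.7%) and 0 higher. The integrin subunits ITGA3 (-4.65) and ITGB8 (-3.55) and the cytoskeletal linker DST (-3.54) led them. Of 14 caveolar genes 4 were called lower (28.6%) and 0 higher. The 4 were CAV1, CAV2 (-1.96), EHD2 (-1.54) and EHD1 (-1.44).

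Inflammatory genes, where called, were mostly lower on the arrays titled PC3. Of 42 measured genes of the NF-kB pathway and its targets, 15 were called lower (35.7%) and 5 higher (11.9%). Over all genes the shares were 8.42% and 8.4%. The median log2 difference was -0.73, beside 0.03 over all genes. The neutrophil chemokines CXCL5, CXCL6 and CXCL8 had differences of -7.58, -5.71 and -5.62. CXCL6 stood at 4.76 and 4.91 on the arrays titled PC3, against 10.73 and 10.36 on the arrays titled C42B. CCL2, the monocyte chemokine, went the other way, with values of 7.84 and 7.63 on the arrays titled PC3 and 4.73 and 4.54 on the arrays titled C42B (log2 difference 3.10, limma adjusted p = 0.000316). IL1R1, which encodes the receptor for interleukin-1, was also higher on the arrays titled PC3 (2.55, with values of 7.51 and 7.12 against 4.72 and 4.80 on the arrays titled C42B), on the side opposite to its ligand IL1B. Without either array titled PC3, 3 in place of 5 members were called higher.

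AP-1 and YAP/TEAD genes leaned the same way. Of 34 measured members, 15 were called lower (44.1%) and 2 higher (5.88%) on the arrays titled PC3, beside 8.42% and 8.4% of all genes. The median log2 difference of the list was -1.32, and it was -0.67 without the array titled C42B miR-CON. FOSL1, an AP-1 subunit, measured 5.12 and 5.24 on the arrays titled PC3, against 12.02 and 12.12 on the arrays titled C42B (log2 difference -6.89, limma adjusted p = 7.67e-05). The membrane repair protein gene MYOF (-6.56) and the ectonucleotidase NT5E (-5.91) followed. JUND, another AP-1 subunit, was higher (1.35), as was the stress factor ATF3 (1.77).

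Growth factor receptors divided by family member. Of 49 measured receptor tyrosine kinases, 3 were called higher (6.12%) and 10 lower (20.4%) on the arrays titled PC3. Over all genes the shares were 8.4% and 8.42%. ERBB3, the kinase-impaired partner of ERBB2, read 9.91 and 9.91 on the arrays titled PC3, against 7.02 and 6.67 on the arrays titled C42B (log2 difference 3.07, limma adjusted p = 0.000384). The ephrin receptor EPHA3 was higher (3.85) and its relative EPHA7 lower (-3.73). KDR, a receptor of vascular endothelial growth factor, stood at 3.12 and 3.49 on the arrays titled PC3, against 7.58 and 8.88 on the arrays titled C42B (-4.93, adjusted p = 0.00127).

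In the TGF-beta pathway the lowest genes were a receptor, a ligand subunit and an inhibitor. TGF-beta ligands signal through paired kinase receptors to SMAD proteins, and follistatin binds activins outside the cell. Of 46 measured members 14 were called lower (30.4%) and 4 higher (8.7%) on the arrays titled PC3, beside 8.42% and 8.4% of all genes. TGFBR2, the type II receptor, measured 3.04 and 3.88 on the arrays titled PC3, against 9.87 and 10.46 on the arrays titled C42B (log2 difference -6.70, limma adjusted p = 0.000231). INHBA, the activin subunit, read 5.54 and 4.13 on the arrays titled PC3 and 11.35 and 11.53 on the arrays titled C42B (-6.60), and FST, which encodes follistatin, followed (-6.40). The type I receptor ACVR1B was higher (1.19). Without the array titled PC3 miR-410, 8 in place of 14 members were called lower and 2 in place of 4 higher.

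Proteases and their inhibitors, where called, were also mostly lower. Of 42 measured serpins, plasminogen activators and metalloproteinases, 14 were called lower (33.3%) and 3 higher (7.14%) on the arrays titled PC3. Over all genes the shares were 8.42% and 8.4%. TIMP1 stood at 4.33 and 3.57 on the arrays titled PC3, against 11.85 and 11.88 on the arrays titled C42B (log2 difference -7.91, limma adjusted p = 0.000105). SERPINB7 (-7.70) and the protease inhibitor SERPINB1 (-5.96) came next, and the membrane metalloproteinase MMP15 was the highest (3.38).

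Interferon-response genes, where called, were lower on the arrays titled PC3 with 1 exception. Of 50 measured members, 19 were called lower (38%), among them JAK1, which relays interferon signals, and 1 higher, and the median log2 difference was -0.70. Fewer members were called lower when any 1 array was left out, and the median then lay between -0.91 and -0.59. IFI44L measured 3.44 and 2.83 on the arrays titled PC3, against 8.01 and 8.61 on the arrays titled C42B (log2 difference -5.18, limma adjusted p = 0.000316). The DNA sensor IFI16 (-4.35) and the guanylate-binding protein GBP3 (-4.20) followed. USP18, a negative regulator of interferon signalling, was the one called higher (1.82, with values of 7.23 and 7.54 on the arrays titled PC3 and 5.71 and 5.41 on the arrays titled C42B). Among 29 antigen presentation genes 6 were called lower (20.7%) and 2 higher (6.9%), beside 8.42% and 8.4% of all genes. The lower ones were led by the checkpoint ligand PDCD1LG2 (-3.0), the peptidase ERAP2 (-2.92) and the immunoproteasome subunit PSMB8 (-2.23). The higher calls were lost in part or in full when some single arrays were left out.

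Metabolic genes known from secretory prostate epithelium were called higher more often than lower. Of 35 measured genes of sterol and fatty acid synthesis, 9 were called higher (25.7%) and 2 lower on the arrays titled PC3. The fatty acid elongase ELOVL7 read 9.77 and 10.18 on the arrays titled PC3, against 5.08 and 4.05 on the arrays titled C42B (log2 difference 5.41, limma adjusted p = 0.00051). SREBF1, the transcription factor that activates fatty acid synthesis, stood at 10.78 and 10.73 on the arrays titled PC3 and at 8.33 and 8.31 on the arrays titled C42B (2.44, adjusted p = 0.000448), and ACACA, which encodes acetyl-CoA carboxylase, followed (2.16). Of 31 genes of polyamine, zinc and citrate handling 10 were called higher (32.3%) and 1 lower. The zinc transporter SLC30A4 measured 9.58 and 10.63 on the arrays titled PC3, against 4.87 and 6.02 on the arrays titled C42B (4.66, adjusted p = 0.00239), and the zinc importer SLC39A8 (3.28) and NAALADL2 (4.37) were also higher. SMOX, which oxidises spermine, was the one called lower (-2.65). The 2 lower calls of the sterol list were 4 without the array titled C42B miR-CON and 1 without the array titled PC3 miR-CON.

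Targets of p53, a tumour suppressor that PC3 cells are known to lack and LNCaP cells to carry in wild-type form, were called higher more often than lower. Of 41 measured members 10 were called higher (24.4%) and 4 lower on the arrays titled PC3, and their median log2 difference was 0.45. TRAF4 (2.30), SESN1 (2.02) and RPS27L (1.93) were the highest. SESN1, a stress-induced regulator of growth, read 7.42 and 7.77 on the arrays titled PC3, against 5.29 and 5.86 on the arrays titled C42B. The lowest were SFN, which encodes 14-3-3 sigma (-3.78), SERPINB5 (-2.15) and PLK2 (-1.92). Without the array titled PC3 miR-410, 6 in place of 10 members were called higher.

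Glutathione transferases differed by member. Beside GSTP1, GSTM4 stood at 3.19 and 3.02 on the arrays titled PC3, against 8.46 and 8.70 on the arrays titled C42B (log2 difference -5.48, limma adjusted p = 0.000101), and GSTM2 was lower as well (-3.58). GSTM3 was higher (1.45), as were the glutathione reductase GSR (1.94) and GGT1, which cleaves extracellular glutathione (2.75). Of the whole list of 42 measured glutathione, NRF2 and metallothionein genes, 11 were called lower (26.2%) and 4 higher (9.52%). The share called higher was near the 8.4% over all genes, of which 8.42% were called lower.

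Cell cycle genes gave shares near those over all genes. Of 51 measured cell cycle genes 4 were called higher and 3 lower (7.84% and 5.88%), with the G1 cyclin CCNE1 the highest (1.63) and the kinase gene CDK6 among the lowest (-2.11). Without the array titled C42B miR-410, 9 cell cycle genes were called higher, and without the array titled PC3 miR-410, 2. Of 25 ribosomal protein genes only RPL27 was called (1.57), with a list median of 0.32. Of 32 secretory pathway and unfolded protein response genes 1 was called higher and 2 lower, with AGR2, a disulfide isomerase of secretory cells, at values of 4.18 and 4.28 on the arrays titled PC3 and 9.16 and 7.32 on the arrays titled C42B (log2 difference -4.0). Without the array titled PC3 miR-410, 1 secretory gene was called lower. Among 33 neuroendocrine and neuronal genes 2 were called higher (6.06%) and 3 lower (9.09%), near the 8.4% and 8.42% over all genes. SYT4, a synaptotagmin, measured 10.87 and 7.30 on the arrays titled PC3, against 3.86 and 3.37 on the arrays titled C42B (5.47, limma adjusted p = 0.0182), and its call was lost without the array titled C42B miR-410 (adjusted p = 0.0524). FOXA2, a factor of endoderm and neuroendocrine cells, was lower on the arrays titled PC3 (-3.51). SLITRK3 stood high on a single array, with values of 3.03 and 9.50 on the arrays titled PC3 and 2.72 and 2.82 on the arrays titled C42B, and was not called (3.50, adjusted p = 0.257). Its log2 difference was 6.73 without the array titled PC3 miR-CON and 0.26 without the array titled PC3 miR-410. The neuronal list had 4 members called higher without the array titled PC3 miR-CON and 1 without the array titled C42B miR-410. Of 23 prostate surface antigens, which include FOLH1, 7 were called higher (30.4%) and 2 lower (8.7%). More of them were called lower without the array titled C42B miR-410. Of 25 core members of the PI3K-AKT pathway, which relays growth factor signals, 4 were called in each direction (16% each). Fewer were called higher without either array titled PC3.

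HOX genes, which mark position along the body axis, were called in both directions with modest differences. Of 23 measured HOX genes 4 were called higher and 2 lower on the arrays titled PC3, beside 8.4% and 8.42% of all genes. The share called lower was thus near that over all genes. HOXD13, a factor of the urogenital tract, read 7.07 and 6.69 on the arrays titled PC3, against 5.17 and 4.88 on the arrays titled C42B (log2 difference 1.85, limma adjusted p = 0.00311). HOXC12 was higher by 1.80, with 5.38 and 5.10 on the arrays titled PC3 and 3.61 and 3.28 on the arrays titled C42B. The HOX counts moved with single arrays. Without the array titled PC3 miR-CON 2 were called higher and 1 lower, and without the array titled PC3 miR-410 3 and 1. Without the array titled C42B miR-CON 3 were called in each direction, and without the array titled C42B miR-410 4 higher and 2 lower.

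Called genes lay side by side in places. With genes in the order of the RefSeq table, there were 30 runs of at least 4 neighbouring measured genes all called in 1 direction, 15 higher and 15 lower. The longest, of 10 genes each, were a zinc finger cluster on chromosome 19, from ZNF714 to ZNF676, with log2 differences between 1.00 and 1.97, and a cancer/testis cluster on chromosome X made of 9 CT45A genes and SAGE1, with differences between 2.86 and 5.42. CT45A10 stood at 8.41 and 8.30 on the arrays titled PC3, against 2.93 and 2.93 on the arrays titled C42B. Another run on chromosome X held 5 GAGE genes and PAGE1 (4.20 to 7.12), and one more held MAGEA3, MAGEA2, MAGEA6 and the CSAG genes between them (2.60 to 4.04). Cancer/testis genes are silent in most adult tissues. Not all such families were mostly called: of 6 measured PAGE genes 1 was called higher, of 4 XAGE genes 1 and of 10 MAGEA genes 4. Of 43 measured members of the cancer/testis list, which holds neither CT45A nor GAGE genes, 7 were called higher (16.3%) and 1 lower (2.33%). Over all genes the shares were 8.4% and 8.42%. The UGT2B genes on chromosome 4 formed a run of 7 with TMPRSS11E. ZNF676 lost its call without either array titled C42B, and its log2 difference of 1.85 was 1.13 without the array titled PC3 miR-CON.

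On the lower side, the metallothionein genes of chromosome 16, whose products bind zinc and copper, formed a run of 9 from MT2A to MT1IP, with log2 differences between -1.79 and -1.26. MT2A measured 11.04 and 10.42 on the arrays titled PC3, against 12.42 and 12.54 on the arrays titled C42B. On chromosome 4, CXCL5, CXCL3, CXCL2, MTHFD2L and EPGN formed a run (-7.58 to -1.35). On chromosome 20, the cystatin genes CST3, CST4, CST1 and CST2, which encode inhibitors of cysteine proteases, formed another (-5.42 to -1.52), and CST1 read 2.71 and 2.70 on the arrays titled PC3, against 9.18 and 7.08 on the arrays titled C42B. Chromosome 10 held a run of 8 from SEC24C to AP3M1 that takes in PLAU and VCL (-5.92 to -1.01), and a run of 6 from CCDC7 to CCNY that takes in ITGB1 and NRP1 (-5.59 to -1.05). CDKN2A, CDKN2B, DMRTA1 and ELAVL2 were neighbours on chromosome 9 (-4.24 to -1.47). FOXA1 lay in a higher run on chromosome 14 with SLC25A21, MIPOL1 and TTC6 (1.17 to 5.60). Members of the CT45A, GAGE, MAGEA, MT1, CST and zinc finger families are near-identical in sequence or close to it, so their probes may share signal and a run of them may count 1 signal several times. CT45A8 and CT45A9 had equal values on every array. Some calls in these runs rested on single arrays. CXCL2 lost its call without the array titled PC3 miR-410, CST2 without either array titled PC3, CCDC7 without any array but C42B miR-CON, and SLC25A21 without the array titled PC3 miR-CON. CST2 had a log2 difference of -1.36 without the array titled C42B miR-CON, against -2.08 with all arrays.

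**Figure D4:**
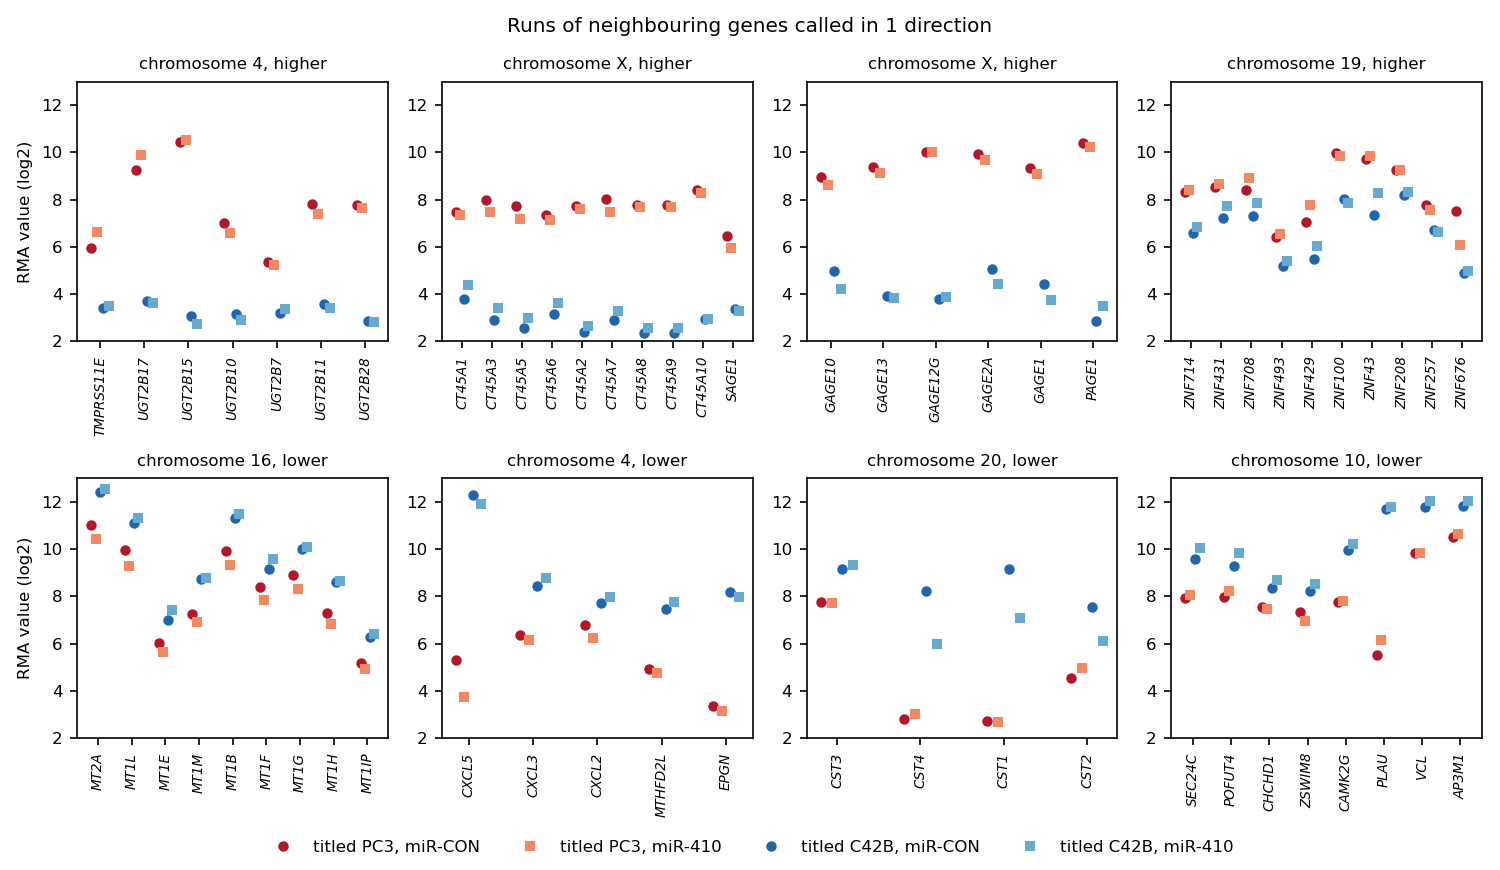
RMA values (log2, vertical axis) of the genes in 8 runs of neighbouring genes called in 1 direction, in chromosome order, 1 point per array, red tones for the arrays titled PC3 and blue tones for the arrays titled C42B, circles for miR-CON and paler squares for miR-410 by title. In the CT45A run the red points lie far above the blue ones (8.41 and 8.30 against 2.93 and 2.93 for CT45A10), while in the metallothionein run the group means differ by less than 2 units.

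The shares of called genes differed between chromosomes. On chromosome 13, 16.6% of 290 genes were called higher and 8.28% lower on the arrays titled PC3. Chromosomes 9 (14.5% higher and 6.63% lower), 15 (14.2% and 5.77%) and 22 (11.3% and 3.27%) also held more higher than lower calls. Chromosomes 20 (2.21% higher and 11.2% lower), 5 (5.42% and 13.2%) and 21 (4.33% and 12%) held more lower calls. The median log2 difference was 0.27 over chromosome 22 and -0.17 over chromosome 20. Copy number was not measured here, and neighbouring genes are not independent of each other.

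**Figure D5:**
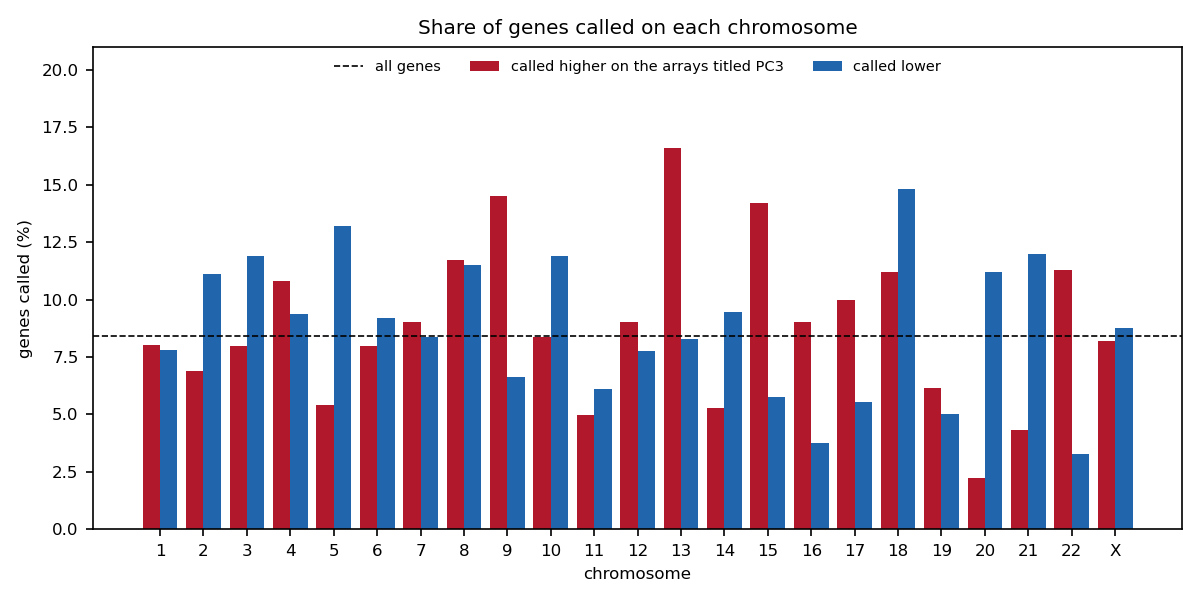
Share of measured genes (vertical axis, percent) called higher (red) or lower (blue) on the arrays titled PC3, for each autosome and X (horizontal axis), with a dashed line at the share called higher over all genes (8.4%). Chromosome 13 has the tallest red bar (16.6%) and chromosome 20 the shortest (2.21%).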

How the data were processed

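Total RNA of 4 stably transfected prostate cancer cultures was measured on Clariom S human arrays, 1 array for each line and construct, giving 2 arrays per line. The values deposited by the authors are log2 RMA values, made in Partek, 1 per probe set and array. Background correction, quantile normalization and probe summarisation were thus done before deposit, and these steps compress large differences near the low end. Scanner files and detection calls were not used here, so no depth or background limit can be given.

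Probe sets were named through the platform table, in which 17709 had 1 gene symbol, 0 had several and 3739 had none. Values of probe sets of 1 gene were averaged (20 genes), which left 17687 genes, all matched to the RefSeq gene table (GRCh38.p14). The 2 arrays titled PC3 were compared with the 2 arrays titled C42B with limma 3.58.1 in R 4.3.3 (lmFit and eBayes), with Benjamini-Hochberg adjustment over all genes, and a gene was called at an adjusted p under 0.05 and a difference of at least 2-fold. Tables and figures were made with Python 3.11.15, pandas 2.3.3, NumPy 2.4.6 and Matplotlib 3.10.9. The fit was tested on simulated data.

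Genes were named by a rule. It took both marker lists, the 15 highest and 15 lowest differences among called genes whose higher mean reached the median of all values, the 3 highest and 3 lowest members of each of 34 gene lists, the genes with known lesions, the HOX clusters and the 5 genes with the largest opposite differences in the 2 constructs. Not every gene so chosen is described. The members and lists were chosen with earlier results of these data known. Other members of gene families and of runs of neighbouring genes, and NDRG1 and EHD1, were named after their values were seen. Alternatives changed the moderation, the thresholds, the construct as a block, a filter on dim genes, the handling of several probe sets, the scaling and, in turn, the arrays included.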

Additional observations from a re-analysis of the deposited data

Results flagged for a closer look

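For 5 genes the difference between the lines had opposite signs in the 2 constructs by title, each over 1 on the log2 scale, with 1 array per line and construct, and the difference between these differences was not tested. They are the 5 largest of 10 such genes. LCP1, an actin-bundling protein gene, had a log2 difference (titled PC3 minus titled C42B) of -1.89 on the miR-CON arrays and 1.57 on the miR-410 arrays. GJB2, which encodes a gap junction protein, had differences of -1.93 and 1.43 in the same order. TNFSF15, a cytokine gene, had -3.08 and 1.39. The cytochrome P450 genes CYP4X1 and CYP1B1 had -1.34 and 2.94, and -2.61 and 1.25.

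Most of this came from the pair titled C42B. LCP1 stood at 8.39 and 7.74 on the arrays titled PC3, against 10.29 and 6.17 on the arrays titled C42B. TNFSF15 stood at 5.55 and 6.28 on the arrays titled PC3, against 8.63 and 4.89 on the arrays titled C42B. GJB2 and CYP1B1 were likewise closer together on the arrays titled PC3 (7.31 and 7.41, and 5.36 and 5.81) than on the arrays titled C42B (9.24 and 5.98, and 7.98 and 4.56). CYP4X1 differed within both pairs, with 3.77 and 6.11 on the arrays titled PC3 and 5.11 and 3.18 on the arrays titled C42B. None of the 5 genes was called between the lines. The construct names of the pair titled PC3 are in conflict between labels, so the labels alone do not settle which arrays of the 2 pairs belong together.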

How the results depend on the processing

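The counts of 1485 higher and 1490 lower calls stayed within 1.5 times under the construct as a block (by title or by genotype field), a mean-variance trend, the filter on dim genes, other handling of several probe sets, median or loess recentring, and renewed quantile normalization. Leaving out 1 array gave 1071 to 1787 higher and 1189 to 1652 lower calls. Without moderation of the variances, 1 gene was called higher and 0 lower, although 6692 genes had an unadjusted p under 0.05 in the moderated fit. With 2 arrays per line, the calls therefore depend on the variance shared across genes. With 1 array of a line left out, that line adds no spread to the test. Calls gained or lost then rest on the spread of the other line's pair and on the shared variance. Without the fold cutoff 2488 genes were called higher, at 4-fold 417 higher and 677 lower, and at an adjusted p under 0.01 988 higher. Loess recentring gave 1236 higher and 1640 lower calls. No named gene with a call turned its sign under any alternative run on genes. Of 170 called genes named here, 10 lost their call without 1 array, and all 170 lost it without moderation. Some uncalled genes gained a call with 1 array left out. For those with an uneven pair, such as GRHL2, that pair's spread had then left the test. The 5 genes with opposite signs in the constructs turned sign with single arrays: the log2 difference lay between -2.22 and 1.90 for LCP1, -1.88 and 1.38 for GJB2, -2.72 and 1.03 for TNFSF15, -0.37 and 1.97 for CYP4X1, and -2.39 and 1.03 for CYP1B1 when 1 array was left out. The cause was not tested. With the construct as a block, the counts were 1536 higher and 1537 lower by title, and 1544 and 1552 by the genotype field. The labels pair the arrays by construct name only.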

Other observations

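Probe sets with no gene name in the table used here were fitted in the same way. Of 3739 such probe sets, 264 were called higher (7.06%) and 193 lower (5.16%) on the arrays titled PC3, with log2 differences between -7.88 and 7.11. The direction of the calls was thus less even than among named genes, of which 8.4% were called higher and 8.42% lower.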
